A study of Mus musculus with 24 samples.

Results

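Replication-dependent histone genes were followed in 24 RNA-seq libraries of subcutaneous fat from the 4th mammary gland of C57BL/6 mice. The genes were taken by name. All genes whose symbol begins with Hist1h, Hist2h, Hist3h or Hist4h were collected, pseudogenes were left out, and those with at least 10 counts summed over the 24 libraries were kept. Of 61 such genes 50 were kept, among 39017 genes in all. They comprised 6 linker histone H1 genes, 14 H2A, 12 H2B, 5 H3 and 13 H4 genes. There were 6 groups, each of 4 libraries, set by what the mice ate and by where the fat lay relative to a breast tumor. The diets are labelled Chow and HFD, and the series calls the animals lean and obese. The positions are no-tumor fat, the contralateral fat of tumor-bearing mice and the peritumoral fat beside the tumor. All 6 groups share the strain and the depot, and neither age, sex, tumor line nor feeding time is given in the sources used here. The sample titles mark every peritumoral library L and every contralateral and no-tumor library R. If these letters stand for left and right, body side and nearness to the tumor cannot be told apart. Whether the 4 replicates came from different mice is not stated, so each p-value rests on library spread alone, part of which may be technical. Nor is it stated whether contralateral and peritumoral libraries of the same number share a mouse.

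Histones package DNA into nucleosomes. H2A, H2B, H3 and H4 form the core around which DNA is wound, and the linker histone H1 binds where DNA enters and leaves it. Cells make most of their histone protein while they copy their DNA, from clustered genes without introns whose mRNAs, alone among those of animal cells, end in a short stem-loop in place of a poly(A) tail. The stem-loop binding protein Slbp, the U7 snRNP and the coactivator Npat serve this pathway. A cell that has stopped dividing relies more on replication-independent variants, and several cluster genes can also give polyadenylated transcripts in such cells. Mature adipocytes do not divide, while progenitor, immune and endothelial cells of the fat pad can. These libraries were made from total RNA depleted of ribosomal RNA, a method that does not require a poly(A) tail.

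The stem-loop letters were read from GENCODE vM21 transcripts (mm10), because they are the feature by which these mRNAs are known. The search used the histone stem-loop on the transcript strand, with the positions that vary among histone genes left free. Of the 50 genes 35 (70%) held it, against 0.161% of 55450 genes with transcripts. The sites of genes described in the results are shown 5′ to 3′, with the stem and loop in capitals.
Hist1h1c: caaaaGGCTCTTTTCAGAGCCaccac
Hist1h1e: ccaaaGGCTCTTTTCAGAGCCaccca
Hist1h2bb: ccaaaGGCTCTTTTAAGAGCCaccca
Hist1h3b: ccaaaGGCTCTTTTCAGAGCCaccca
Hist1h4d: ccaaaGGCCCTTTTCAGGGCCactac
Hist1h4f: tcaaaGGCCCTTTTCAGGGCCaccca
Hist1h4h: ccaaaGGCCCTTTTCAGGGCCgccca
Hist2h4: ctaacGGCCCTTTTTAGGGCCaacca
In all 35 sites the 6 stem positions paired. Most of these pairs are set by the letters searched for, so only the stem positions left free could have failed to pair. The core of Hist1h1c was shared by 18 genes of the H1, H2A, H2B and H3 families. The core of Hist1h4d was found in 7 genes, all of them H4. The annotated transcript ended within 100 bases of the stem-loop in 17 genes, among them Hist1h3b, Hist1h4f and Hist1h4h. It ran on for more than 100 bases in 18 genes, for example by 840 bases in Hist1h1c, 1153 in Hist1h1e, 770 in Hist1h4d and 1257 in Hist2h4. The other 15 had no such letters in their annotated transcript, and several of those models hold little more than the coding sequence. Hist1h2bc and Hist2h2be, which are reported to give polyadenylated transcripts, were also without the letters in annotated transcripts of 1156 and 2620 bases.

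Promoter windows (250 bases before to 50 after the start, RefSeq, GRCm38.p6) were found for 45 of the 50 genes. The letters CCAAT, a common promoter element, lay on either strand in 36 of 45 windows (80%) against 37.4% of all 32851 windows, but in only 3 of 12 H4 windows. TATAAA was found in 29 (64.4%) against 13.6%. The octamer ATTTGCAT, known from H2B promoters, was found in 10 (22.2%) against 1.74%, namely in 6 of 13 H2A and 4 of 10 H2B windows. Windows of neighboring genes on opposite strands can overlap, and a shared site is then counted for both genes. Hist1h2ae and Hist1h2bg share their octamer in this way, so the windows are not independent. AAACACA, known from H1 promoters, was found in 5 of 6 H1 windows against 7.18% of all windows. A match describes the letters and is not evidence of binding. Windows of 4 genes are shown over the 150 bases before the start, since their genes moved to different degrees, with these motifs in capitals on either strand. They are Hist1h1a (chr13:23763518-23763667, plus strand), Hist1h1b (chr13:21780626-21780775, minus strand), Hist1h2bb (chr13:23746584-23746733, plus strand) and Hist1h4h (chr13:23530894-23531043, plus strand).
Hist1h1a: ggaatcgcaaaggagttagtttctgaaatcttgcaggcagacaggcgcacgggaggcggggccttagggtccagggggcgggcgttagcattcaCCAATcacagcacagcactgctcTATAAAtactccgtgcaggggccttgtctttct
Hist1h1b: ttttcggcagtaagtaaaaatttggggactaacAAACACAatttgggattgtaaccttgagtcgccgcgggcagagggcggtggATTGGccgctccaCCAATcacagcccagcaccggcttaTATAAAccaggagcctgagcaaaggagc
Hist1h2bb: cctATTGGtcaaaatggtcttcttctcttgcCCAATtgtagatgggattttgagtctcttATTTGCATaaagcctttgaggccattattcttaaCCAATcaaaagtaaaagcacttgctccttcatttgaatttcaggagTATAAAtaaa
Hist1h4h: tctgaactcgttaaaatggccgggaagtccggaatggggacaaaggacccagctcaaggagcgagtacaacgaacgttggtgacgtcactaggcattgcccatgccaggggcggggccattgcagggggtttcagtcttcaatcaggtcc
Hist1h1b and Hist1h2bb carry several of the elements within this stretch, Hist1h1a carries CCAAT and TATAAA, and Hist1h4h carries none of these motifs.

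The genes lie in clusters (mm10). On chromosome 13, 25 of the 50 fall between 23531044 and 23764414, 11 between 21715763 and 21832196 and 5 between 22035113 and 22043676. Hist1h2al lies apart on the same chromosome. A further 5 lie on chromosome 3, 2 on chromosome 11 and Hist4h4 alone on chromosome 6. Total counts per library ran from 9130125 to 18204747, and the 50 genes together received between 2490 and 18976 counts per library. Just above the minimum lay Hist1h4n with 23 counts and Hist1h2ad with 24 over all libraries. Of the 11 genes below it, Hist1h2aa had 2 counts, Hist1h2aj 1 and the other 9 none. Copies of these genes are nearly identical. In windows of 50 bases, a median of 51.8% of a kept gene's transcript was found in no other gene (range 6% to 100%), against 2.75% for the genes at 0 counts. The handling of reads with several matches is not stated, so counts of single H2A, H2B, H3 and H4 genes are uncertain. H1 genes had a median of 98.8%, with the lowest value, 68%, in Hist1h1e. These shares refer to the longest annotated transcript, which can be longer than the deposited gene model. The strand of counting is not given either. Hist1h4b and Hist2h2ab overlap a gene on the opposite strand, and Hist1h2ac, Hist1h2be and Hist3h2a one on the same strand.

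Levels per exon length were uneven within each family. Over the 24 libraries the highest mean level was that of Hist1h4d (13:23581598-23581990, 1 exon) at 144 CPM per kb of exon in the deposited gene model, where CPM is the count scaled to a common library size. It was followed by the H2B gene Hist1h2bc (64.3 CPM per kb), the linker gene Hist1h1e (52.1), the H4 genes Hist1h4h (43.7) and Hist1h4c (35.2), and the linker gene Hist1h1c (30.5). A step separated these 6 from Hist1h4f (14.2), Hist2h2ac (13.6), Hist1h2bb (13.6), Hist2h4 (13.1), Hist1h1a (12) and Hist1h4k (11.3). Together these 12 genes held 73.3% of the counts of all 50. The step depends on the length of the deposited models. Hist2h4 had a mean of 21.12 CPM over 1608 exon bases and Hist1h4h 20.82 CPM over 476. Of the forms known from testis, Hist1h1t had 30 counts in all and Hist1h2ba none.

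Summed over the 50 genes, the level was higher on HFD than on Chow at each position, and it was highest beside the tumor on HFD. In Chow no-tumor fat replicates 1 to 4 gave 344.4, 322.9, 294 and 288.7 CPM, and in HFD no-tumor fat 367.4, 377.5, 389.8 and 402.7. The HFD libraries lay above all Chow libraries, with a ratio of means of 1.23. In Chow contralateral fat the sums were 238.5, 237.5, 250 and 255.9 CPM, and in HFD contralateral fat 409.2, 395.4, 380.9 and 351.9. Again there was no overlap, and the ratio was 1.57. Chow peritumoral libraries held 202.9, 239.2, 293.3 and 319.5 CPM, and HFD peritumoral libraries 491.7, 1091, 553.6 and 581.4. The ratio was 2.58 with no overlap (2.13 between medians), but HFD peritumoral replicate 2 stood far above the rest of its group. The group mean was 679.3 CPM with it and 542.2 CPM without it. A sum over chosen genes is given as a description and was not tested.

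**Figure D1:**
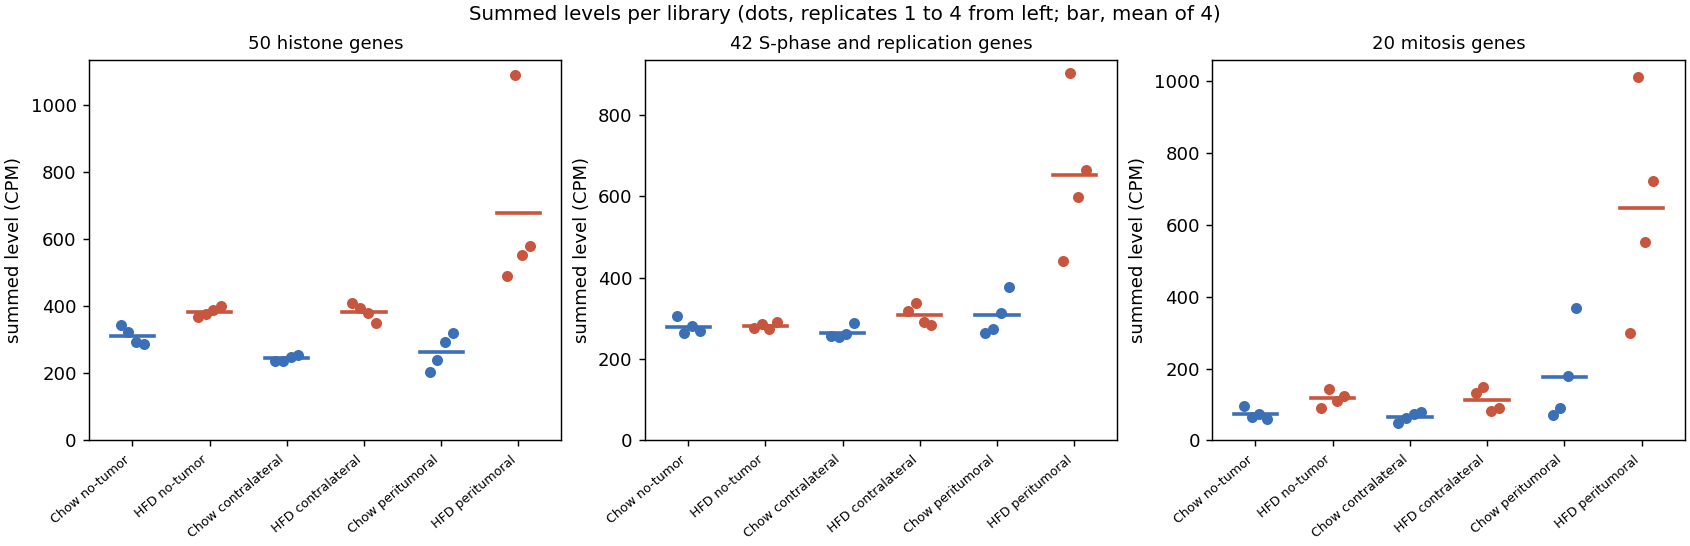
Summed level in CPM (vertical axes, from 0) of the 50 histone genes, 42 S-phase and DNA replication genes and 20 mitosis genes in each of the 6 groups (blue, Chow; red, HFD; dots, libraries; bars, means of 4). The histone sum of every HFD library lies above every Chow library at the same position, whereas the S-phase sums of both diets overlap in no-tumor and in contralateral fat. The mitosis sums of both diets overlap in no-tumor and in peritumoral fat and do not overlap in contralateral fat.

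Markers of several cell types differed between the groups, some in the same direction as the histone sums and some in the opposite direction. The sum of 6 adipocyte markers was 1.48 times as high on HFD in no-tumor fat and 2.12 times in contralateral fat, both without overlap, and 1.41 times in peritumoral fat, with overlap. By tumor side on HFD the adipocyte sum was lower beside the tumor, with a ratio of 0.62 and no overlap. The sum of 6 germinal center and plasma cell markers was lower on HFD. Its ratios were 0.58 and 0.84 in no-tumor and contralateral fat, without overlap, and 0.86 in peritumoral fat, with overlap. The sum of 5 endothelial markers was 1.61 times as high on HFD in no-tumor fat, without overlap, and 1.08 and 0.98 times in contralateral and peritumoral fat, with overlap. The sum of 7 mammary epithelial markers was lower on HFD at every position without overlap, with ratios of 0.67, 0.48 and 0.39 in no-tumor, contralateral and peritumoral fat. HFD peritumoral replicate 2 also had the highest sum of 8 B cell markers (156 CPM, with 5.19 to 55.98 in the rest of its group) and the lowest sum of 6 adipocyte markers in its group (6646 CPM against 8803 to 12350). In Chow contralateral replicate 4 the B cell sum was 149.3 CPM, with 5.66 to 21.37 in the rest of its group. Its histone sum of 255.9 CPM was the highest of its group, with 237.5 to 250 in the rest. Macrophage markers summed to between 1106 and 1574 CPM in HFD peritumoral fat and to at most 980.5 in any other group. Neutrophil markers summed to between 23.16 and 67.83 CPM there and to between 6.475 and 21.68 in HFD contralateral fat. Skeletal muscle markers reached 4599, 3195 and 2619 CPM in Chow contralateral replicates 1, 2 and 4, and 75.1 in replicate 3. In bulk tissue, fewer cells of a type and less RNA per cell cannot be told apart. The part of these cell types in the results was not tested.

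Diet in fat without a tumor was compared first. Of 33 histone genes tested, 9 were higher on HFD and none was lower. Those 9 compare with 13.6% of 15827 genes called higher and 11.3% called lower (24.9% either way, adjusted p under 0.05). The median log2 fold change of the 33 was 0.40. In 7 of them all HFD libraries lay above all Chow libraries and in none below, against 14.4% and 13% of all genes. The number called was 2 with all 24 libraries in 1 fit, and 5 to 14 on leaving out 1 library (14 without Chow no-tumor replicate 1 and 5 without replicate 4). Of the 5 tested linker genes 4 were called. Hist1h1e, a widely expressed linker, measured 31.96, 30.69, 24.84 and 27.17 CPM on Chow and 42.27, 36.45, 42.88 and 39.51 on HFD. Every HFD library was higher, by 0.50 ± 0.09 (log2 ± SE, adjusted p = 0.001335). Hist1h1d rose by 0.57 ± 0.14 (adjusted p = 0.01203), Hist1h1a by 0.65 ± 0.20 (adjusted p = 0.02936) and Hist1h1c by 0.29 ± 0.09 (adjusted p = 0.04261). Hist1h1a kept its call in 8 and Hist1h1c in 7 of 14 alternatives.

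Among the core histones, H2B genes led. Hist1h2bc had 36.35, 47.75, 33.81 and 33.44 CPM on Chow and 50.34, 71.81, 64.28 and 70.83 on HFD, with no overlap (log2 0.78 ± 0.15, adjusted p = 0.005752). Hist1h2be rose from a mean of 13.14 to 19.52 CPM (0.58 ± 0.11, adjusted p = 0.001697) and Hist1h2bn from 2.39 to 3.98 CPM (0.74 ± 0.19, adjusted p = 0.01194). The H3 gene Hist1h3c (1.08 ± 0.29, adjusted p = 0.01733) and the H4 gene Hist1h4a (0.91 ± 0.26, adjusted p = 0.02139) completed the 9. The more abundant H4 genes gave other values. Hist1h4d measured 56.09, 48.17, 49.28 and 52.78 CPM on Chow and 54.96, 48.23, 52.66 and 58.05 on HFD, which overlap widely (0.07 ± 0.07, adjusted p = 0.54). No H2A gene was called among 7 tested. As a share of the histone sum, H4 was 41.17% ± 2.71 on Chow and 34.56% ± 1.68 on HFD (SD, n = 4), with no overlap of libraries.

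In contralateral fat of tumor-bearing mice 19 genes were higher on HFD and 1 was lower among 30 tested. With library totals alone 13 were higher and 1 lower, beside 14 higher in no-tumor fat with the same scaling. In this comparison 24.5% of 15913 genes were called higher and 24.8% lower (49.3% either way). The groups did not overlap in 15 genes higher and 1 lower, against 25.6% and 20.6% of all genes. All 5 tested linker genes rose. Hist1h2bc was again clear, at 30.96, 27.76, 29.84 and 28.46 CPM on Chow and 65.9, 62.89, 57.31 and 76.5 on HFD. Every HFD library lay above every Chow library (1.13 ± 0.08, adjusted p = 2.337e-06). Hist1h2be rose by 0.80 ± 0.08 (adjusted p = 1.722e-05), Hist1h1e by 0.66 ± 0.08 (adjusted p = 6.69e-05) and Hist1h1c by 0.56 ± 0.09 (adjusted p = 0.0005196). Of the H4 genes 7 of 9 tested rose. Hist1h4h measured 14.66, 16.5, 17.83 and 15.73 CPM on Chow and 26.02, 24.47, 24.07 and 20.05 on HFD (0.51 ± 0.10, adjusted p = 0.00116), and Hist2h4 rose by 0.49 ± 0.08 (adjusted p = 0.0006124).

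Hist2h2be, an H2B gene of the chromosome 3 cluster reported to give polyadenylated transcripts, went the other way. On Chow it measured 6.14, 5.91, 6.86 and 7.03 CPM and on HFD 4.6, 3.44, 4.74 and 3.82, so all HFD libraries were lower (-0.68 ± 0.14, adjusted p = 0.002063). In no-tumor fat its value was -0.25 ± 0.14 (adjusted p = 0.2271). In peritumoral fat it fell from 4.82, 6.24, 4.79 and 6.9 CPM on Chow to 4.61, 2.18, 2.957 and 1.997 on HFD (-0.98 ± 0.28, adjusted p = 0.02108). It was the one histone gene called lower on HFD, in 2 of the 3 diet comparisons. Hist1h2bc and Hist2h2be encode the same class of protein and stood on opposite sides of 0 at every position.

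**Figure D2:**
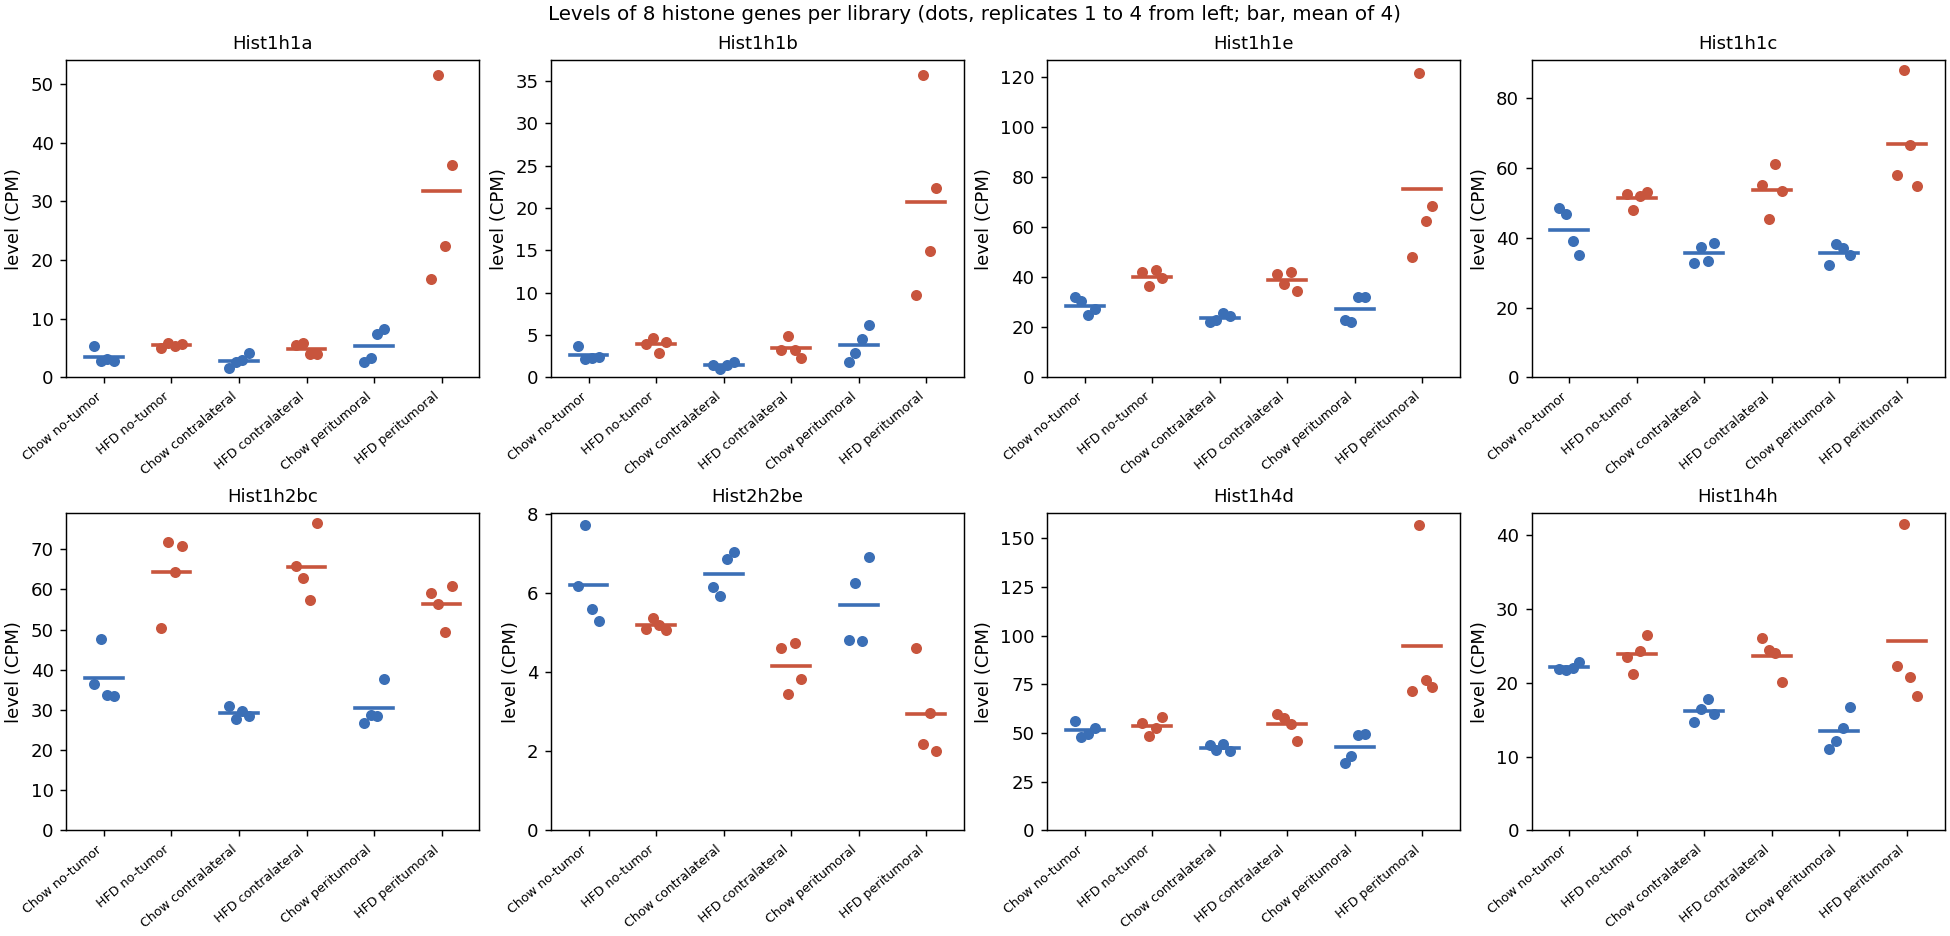
Levels in CPM (vertical axes, from 0) of 8 histone genes in the 6 groups (blue, Chow; red, HFD; dots, replicates 1 to 4 from the left; bars, means). Hist1h2bc is high in all HFD groups alike, Hist1h1a and Hist1h1b are high in HFD peritumoral libraries, and Hist2h2be is lowest there.

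In peritumoral fat 34 of 38 tested genes were higher on HFD and 1, Hist2h2be, was lower. Across all 15919 genes 16.4% were called higher and 17.2% lower (33.6% either way), and the median log2 fold change was 1.86 among the 38 histone genes and 0.02 among all genes. The groups did not overlap in 32 genes higher and 1 lower, against 17.9% and 15.4% of all genes. Without HFD peritumoral replicate 2 the calls were 29 higher and 1 lower. All 5 tested linker genes, 9 of 10 H2B, 6 of 8 H2A, all 4 H3 and 10 of 11 H4 genes rose. Hist1h1a, a linker gene characteristic of dividing cells, measured 2.54, 3.33, 7.36 and 8.31 CPM on Chow and 16.7, 51.61, 22.45 and 36.19 on HFD. The lowest HFD library was higher than the highest Chow library (2.54 ± 0.47, adjusted p = 0.005461). Hist1h1b, another linker gene of proliferating cells, measured 1.86, 2.91, 4.48 and 6.2 against 9.73, 35.75, 14.97 and 22.33 CPM (2.41 ± 0.47, adjusted p = 0.006107). Hist1h4f rose by 2.23 ± 0.43 (adjusted p = 0.005554) and Hist1h2bn by 1.99 ± 0.35 (adjusted p = 0.0029).

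Hist1h2bc, Hist1h1c and Hist1h2be, called in fat without a tumor, had smaller fold changes here than these genes. Hist1h2bc measured 26.83, 28.71, 28.54 and 37.67 CPM on Chow and 59.2, 56.38, 49.42 and 60.76 on HFD (0.85 ± 0.13, adjusted p = 0.001457). HFD peritumoral replicate 2 was not its highest library. Hist1h1c rose by 0.87 ± 0.15 (adjusted p = 0.002501) and Hist1h2be by 1.11 ± 0.22 (adjusted p = 0.004586). A set of 7 genes was called higher on HFD at all 3 positions, namely Hist1h1a, Hist1h1c, Hist1h1d, Hist1h1e, Hist1h2bc, Hist1h2be and Hist1h2bn. Of these, Hist1h1a and Hist1h2bn kept the call in contralateral fat in 6 and 8 of 14 alternatives. The 3 tested genes without a call in peritumoral fat were Hist1h4i, Hist1h2af and Hist3h2a, named here after their values were seen. Hist3h2a, an H2A gene of chromosome 11 listed among polyadenylated forms, stayed between 3.19 and 5.62 CPM in all 24 libraries and was called in none of the 9 comparisons.

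Fat beside the tumor was next compared with contralateral fat, a comparison that on HFD shares its peritumoral libraries with the diet comparison above and its contralateral libraries with that in contralateral fat. On HFD 27 of 39 tested histone genes were higher beside the tumor and 1 was lower. Of all 15627 genes 16.8% were called higher and 12.7% lower (29.5% either way). The groups did not overlap in 25 genes higher and 1 lower, against 16.8% and 14.8% of all genes. Without HFD peritumoral replicate 2, 22 genes were higher and none was lower. Without HFD contralateral replicate 1, 3 or 4 the number called was 18, 14 or 16. Hist1h1a rose from 5.51, 5.78, 4.00 and 4.01 CPM in contralateral to 16.7, 51.61, 22.45 and 36.19 CPM in peritumoral libraries (2.73 ± 0.35, adjusted p = 0.001308), and Hist1h1b by 2.60 ± 0.40 (adjusted p = 0.002831). The H3 gene Hist1h3b measured 2.96, 3.38, 2.71 and 2.26 against 7.93, 23.57, 9.41 and 11.92 CPM (2.23 ± 0.34, adjusted p = 0.002898). Hist1h2bn (1.77 ± 0.30, adjusted p = 0.004372), Hist1h1d (1.83 ± 0.37, adjusted p = 0.007781) and Hist1h4f (1.90 ± 0.39, adjusted p = 0.008415) followed. In each of these genes the lowest peritumoral library lay above the highest contralateral library. The call on Hist2h3c2 as lower (-1.10 ± 0.35, adjusted p = 0.0392) rested on levels below 1.1 CPM and was lost in 12 of 14 alternatives.

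Among the most abundant histone genes the values by side were mixed. Hist1h4d measured 59.6, 57.67, 54.42 and 46.05 CPM in contralateral and 71.45, 156.7, 77.3 and 73.78 CPM in peritumoral fat on HFD, without overlap (0.81 ± 0.25, adjusted p = 0.03446). Hist1h1e rose by 0.97 ± 0.25 (adjusted p = 0.01962). Hist1h4d kept its call in 9 and Hist1h1e in 11 of 14 alternatives. Hist1h2bc measured 65.9, 62.89, 57.31 and 76.5 CPM in contralateral and 59.2, 56.38, 49.42 and 60.76 in peritumoral fat on HFD (-0.21 ± 0.10, adjusted p = 0.1456). Hist1h1c gave 0.33 ± 0.15 (adjusted p = 0.1323), Hist1h2be 0.29 ± 0.18 (adjusted p = 0.2425) and Hist1h4h 0.13 ± 0.24 (adjusted p = 0.697). The 5 genes reported to give polyadenylated transcripts (Hist1h1c, Hist1h2bc, Hist2h2be, Hist3h2a and Hist4h4) summed to 137.5 CPM in contralateral and 144.7 CPM in peritumoral fat on HFD, a ratio of 1.05 with overlapping libraries. The other 45 summed to 246.9 ± 28.4 and 534.6 ± 255.5 CPM (SD, n = 4), a ratio of 2.17 with no overlap (1.70 between medians, which HFD peritumoral replicate 2 moves less). For diet in no-tumor fat the order was the reverse, with ratios of 1.33 for the 5 and 1.18 for the 45. These sums are descriptions and the difference between the sets was not tested.

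The genes were also counted by their annotated transcript ends, beside the 16.8% of all genes called higher by side on HFD. Of the 17 genes whose transcript ends within 100 bases of the stem-loop, 11 of 12 tested were called higher beside the tumor on HFD, with a median log2 fold change of 1.84. Of the 18 with a longer annotated end, 6 of 15 were called higher and 1 lower, with a median of 0.81. Of the 15 without the stem-loop letters 10 of 12 were called higher, with a median of 1.78, and this class includes Hist1h2bc and Hist2h2be. The difference between the classes was not tested. The classes come from GENCODE transcripts, while the counts come from the deposited gene models, which can be shorter. Hist1h4d has 393 exon bases there against 1138 in its transcript and Hist1h1e 748 against 1930, while Hist1h1c has 1560 in both. For such shorter models the counts do not cover the whole annotated end. The exception with the short end was Hist1h4h, whose site was shown with the stem-loops.

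**Figure D3:**
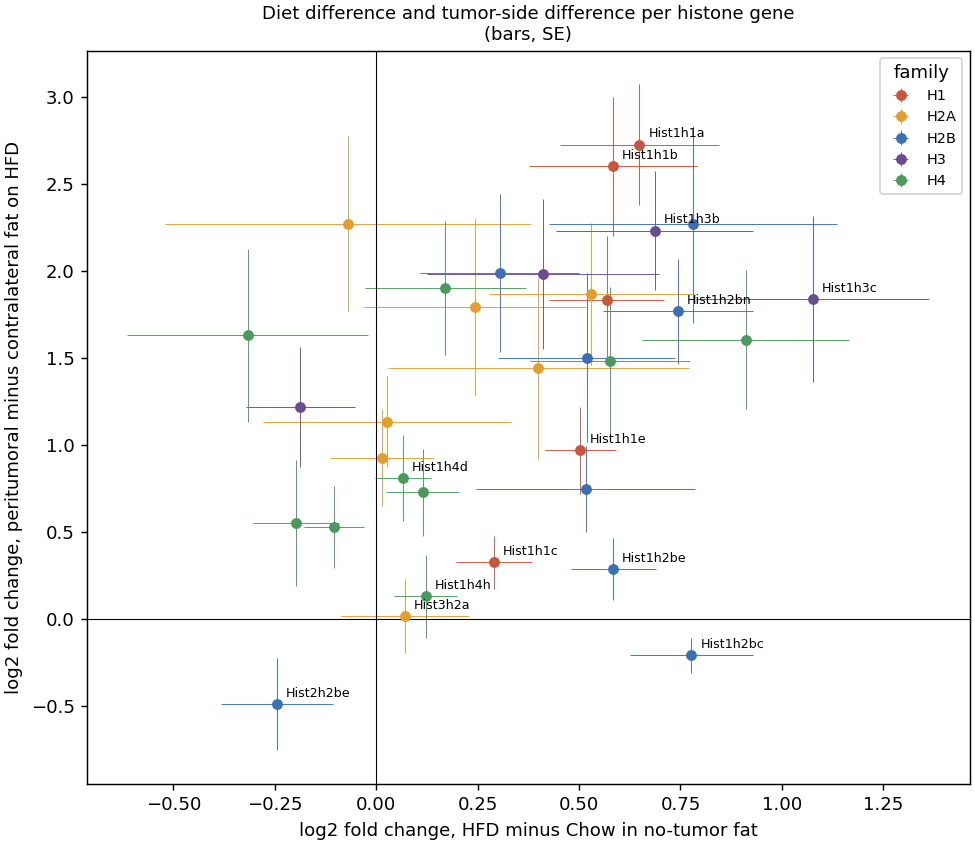
Log2 fold change of each of 33 histone genes for diet in no-tumor fat (horizontal axis) and for tumor side on HFD (vertical axis), colored by family, with SE as bars. The axes share no library. Hist1h2bc lies at 0.78 and -0.21, Hist1h1a at 0.65 and 2.73, and Hist2h2be is below 0 on both.

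On Chow the same side comparison gave no call among 28 tested histone genes (edgeR), and 0% of 16057 genes passed. The groups did not overlap in 1 gene higher and 1 lower, against 2.65% and 2.48% of all genes. Hist1h1b alone had an unadjusted p under 0.05, beside 1381 of all 16057 genes. DESeq2 called no histone gene and 15 genes in all. Hist1h1b measured 1.43, 0.95, 1.44 and 1.79 CPM in contralateral and 1.86, 2.91, 4.48 and 6.2 CPM in peritumoral fat (1.41 ± 0.36, adjusted p = 0.559). Its peritumoral libraries all lay above the contralateral libraries, but they spread over a wide range. The spread was common to the dividing-cell genes. Hist1h1a ran from 2.54 to 8.31 CPM and Hist1h3b from 0.89 to 5.85 CPM in the Chow peritumoral group, with replicates 3 and 4 high in both. The interaction of diet with tumor side called no histone gene and 0% of 16859 genes (edgeR). An unadjusted p under 0.05 was found in 13 of 38 histone genes and in 3349 of all genes. DESeq2 called 727 genes in all and 3 histone genes, namely Hist1h4f, Hist1h3e and Hist1h1a. With edgeR, Hist1h1a differed by 1.87 ± 0.59 between the diets (adjusted p = 0.1313).

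Contralateral fat was then compared with fat of mice without a tumor, using libraries that also enter the diet comparisons. On Chow 5 histone genes were lower in contralateral fat and none was higher among 30 tested, where 3.02% of 15946 genes were called lower and 4.93% higher (7.95% either way). All 5 encode H4. Hist1h4c measured 14.96, 14.4, 14.88 and 14.89 CPM in no-tumor and 10.64, 9.54, 11.93 and 9.66 CPM in contralateral fat. The groups did not overlap (-0.46 ± 0.09, adjusted p = 0.016). Hist1h4h fell by 0.41 ± 0.08 (adjusted p = 0.01512), Hist4h4 by 0.52 ± 0.11 (adjusted p = 0.02043), Hist2h4 by 0.42 ± 0.09 (adjusted p = 0.02391) and Hist1h4d by 0.24 ± 0.06 (adjusted p = 0.03761). Of the 30, 28 had a fold change below 0. In 9 genes all contralateral libraries lay below all no-tumor libraries and in none above, against 11.1% and 7.89% of all genes. None of the 5 was called with library totals in place of TMM factors, which moved the median of all genes to 0.13, with all 24 libraries in 1 fit, or with the replicate number as a block. Leaving out 1 library left between 2 and 6 calls.

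On HFD the same comparison gave no call among 34 histone genes (edgeR), while 6.08% of 15718 genes were called (2.72% higher and 3.37% lower). The groups did not overlap in 1 gene lower and none higher, against 6.42% and 9.37% of all genes. An unadjusted p under 0.05 was found in 3 of the 34 and in 3633 of all 15718 genes. DESeq2 called no histone gene and 1262 genes in all. The histone sums were 384.3 ± 15.3 and 384.4 ± 24.5 CPM in no-tumor and contralateral fat. The interaction of diet with tumor bearing called 5 histone genes of 38, where 9.94% of 16676 genes were called higher and 9.94% lower (19.9% either way). Hist1h4c (0.52 ± 0.12, adjusted p = 0.00709), Hist4h4 (0.70 ± 0.18, adjusted p = 0.01392), Hist1h4h (0.40 ± 0.12, adjusted p = 0.03048) and Hist2h4 (0.38 ± 0.12, adjusted p = 0.03507) were among those lower in contralateral fat on Chow. The H2B gene Hist1h2bf, at 0.33 CPM in Chow and 0.96 CPM in HFD contralateral fat, was the fifth (1.84 ± 0.57, adjusted p = 0.03164). With all 24 libraries in 1 fit 0 were called, with library totals alone 1, which was lower, and leaving out 1 library gave 2 to 5. Over 22 alternatives Hist1h4c and Hist4h4 kept the call in 20 each, Hist1h2bf in 11, Hist1h4h in 10 and Hist2h4 in 9. A positive value here means that contralateral minus no-tumor was larger on HFD.

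**Figure D4:**
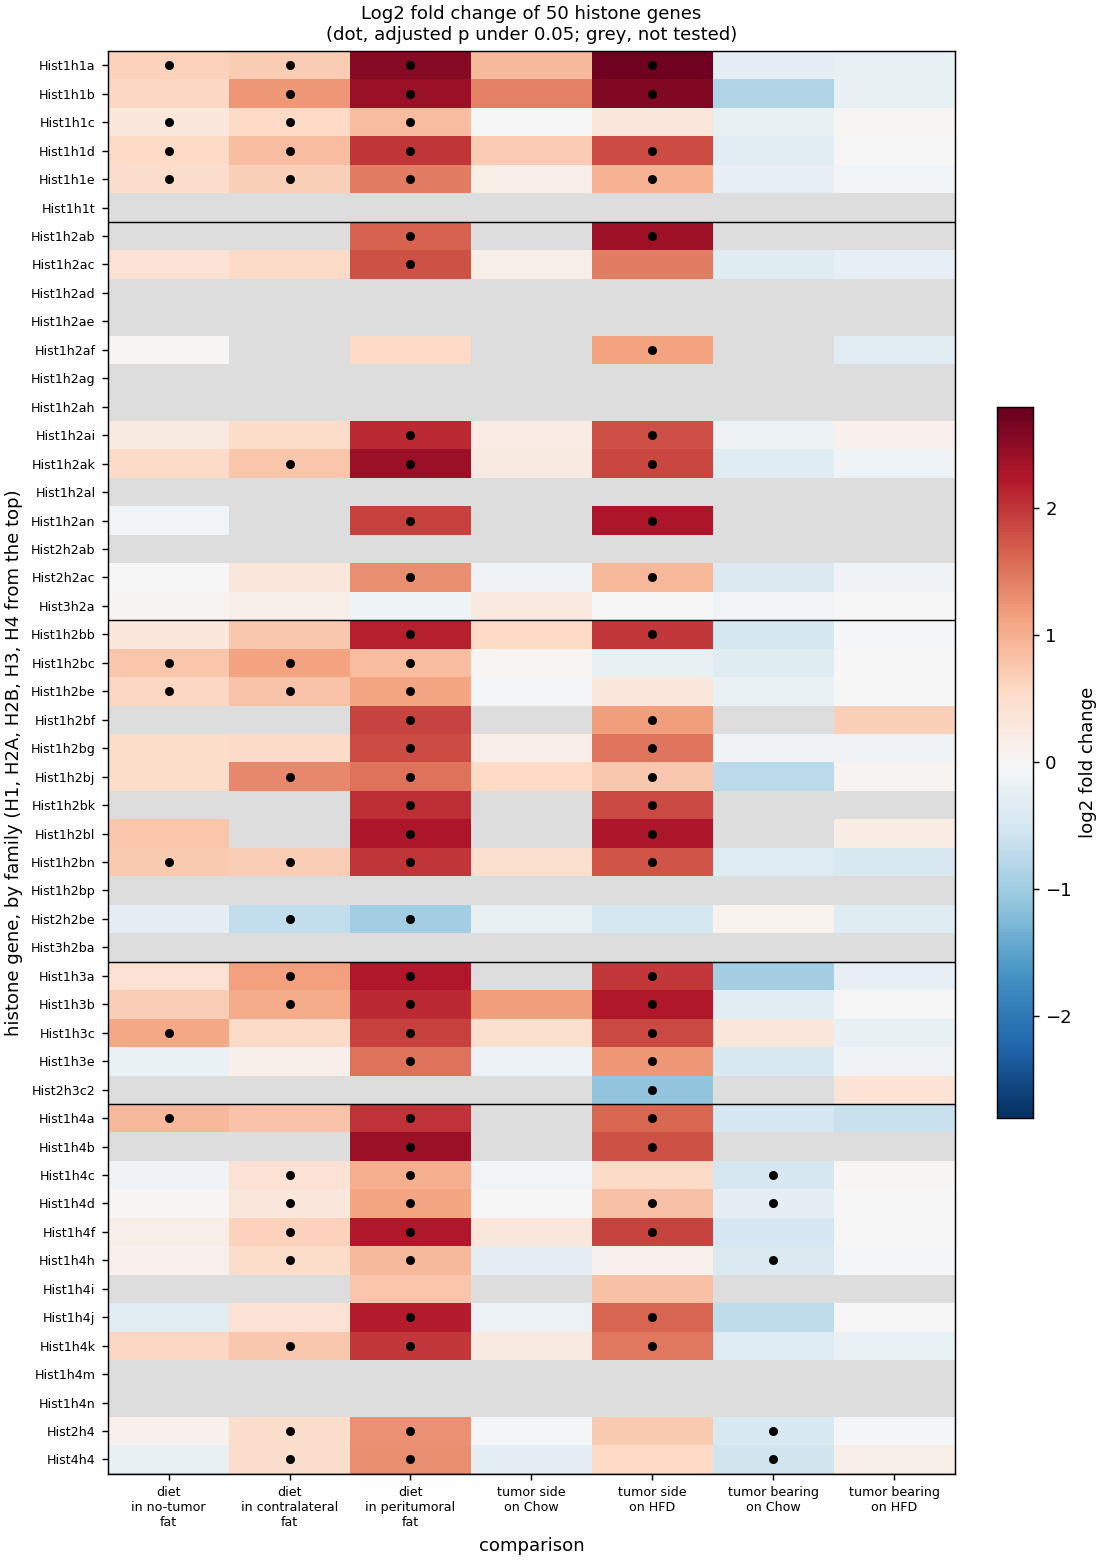
Log2 fold change (color) of the 50 histone genes (rows, by family) in 7 comparisons of 2 groups (columns). A dot marks an adjusted p under 0.05 and grey a gene that was not tested. Calls fill the columns of diet in peritumoral fat (35) and tumor side on HFD (28), and the column of tumor bearing on Chow holds dots at 5 H4 genes.

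Within the sum, the families took different shares. H2B made up 22.29% ± 0.44 on Chow and 27.2% ± 3.1 on HFD (SD, n = 4) in contralateral fat, without overlap, and 19.88% ± 2.85 in HFD peritumoral fat, below every HFD contralateral library. H3 made up 3.27% ± 0.40 of the sum in HFD contralateral and 5.36% ± 0.85 in HFD peritumoral fat, again without overlap. H1 made up between 31.77% and 39.4% in HFD peritumoral fat and between 27.21% and 31.87% in HFD contralateral fat, which overlap slightly.

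S-phase genes were set beside the histone genes. The list held 42 genes of DNA replication and nucleotide supply, and a list of mitosis genes held 20. For tumor side on HFD the S-phase sum was 2.12 times as high beside the tumor (2.08 between medians), and the sum of all 50 histone genes 1.77 times (1.46 between medians). The 45 outside the polyadenylated list gave 2.17 (1.70 between medians). In that comparison 33 of 41 tested S-phase genes and all 20 mitosis genes were called higher, beside 16.8% of all genes. The ribonucleotide reductase subunit Rrm2 measured 3.33, 3.63, 1.78 and 2.32 against 7.87, 17.36, 11.47 and 13.07 CPM (2.18 ± 0.29, adjusted p = 0.001536). The replication clamp Pcna rose by 0.80 ± 0.11 (adjusted p = 0.002018) and the proliferation marker Mki67 by 2.03 ± 0.25 (adjusted p = 0.00121). Topoisomerase Top2a rose by 2.83 ± 0.47 (adjusted p = 0.004019).

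For diet in fat without a tumor the S-phase sum was 279.8 CPM on Chow and 282.4 on HFD, a ratio of 1.01 with overlapping libraries, beside 1.23 for all 50 histone genes and 1.18 for the 45. Of 41 tested S-phase genes 5 were higher and 1 was lower, with a median log2 fold change of -0.01, while 9 of 19 tested mitosis genes were higher with a median of 0.73. Of all genes 13.6% were called higher and 11.3% lower. Pcna gave 0.08 ± 0.12 (adjusted p = 0.6607), Rrm2 rose by 0.69 ± 0.20 (adjusted p = 0.02527) and Mki67 by 0.78 ± 0.21 (adjusted p = 0.02909). In contralateral fat the S-phase ratio was 1.16, with overlap, beside 1.57 for the histone genes and 1.715 for the mitosis genes, both without overlap. Of 19 tested mitosis genes 6 were higher there and none was lower. Of 41 tested S-phase genes 13 rose and 1 fell, beside 24.5% of all genes called higher and 24.8% lower. Pcna rose by 0.26 ± 0.09 (adjusted p = 0.02839) and Rrm2 by 0.93 ± 0.33 (adjusted p = 0.03594). In peritumoral fat, where the S-phase ratio was 2.12, 32 of 41 S-phase genes rose and none fell, beside 16.4% of all genes called higher and 17.2% lower. The contralateral and no-tumor fat of Chow mice had S-phase sums in a ratio of 0.95, with overlap, beside 0.79 for the histone genes, without overlap. The differences between these ratios were not tested.

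Within groups, the library with the highest histone sum also had the highest S-phase sum in 5 of 6 groups and the highest mitosis sum in 4 of 6. HFD contralateral fat was the exception for S phase, with the highest histone sum in replicate 1 and the highest S-phase sum in replicate 2. In HFD peritumoral replicate 2 the S-phase sum was 902.2 CPM and the mitosis sum 1010 CPM, with the rest of the group between 440.3 and 664.9 and between 297.5 and 722.9 CPM. The H4 gene Hist1h4d measured 156.7 CPM there and 71.45 to 77.3 in the rest of the group, while Mki67 measured 167.3 CPM there and 89.78 to 157.2 in the rest.

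Genes that make and process histone mRNA were examined next. Slbp, which binds the stem-loop, had group means between 12.51 and 15.92 CPM and was called in none of the comparisons, with 0.36 ± 0.13 for tumor side on HFD (adjusted p = 0.06891). Npat, which activates histone genes at the start of S phase, was not called in any comparison either. Of the 15 genes of this list, 6 rose and none fell by tumor side on HFD, beside 16.8% of all genes called higher and 12.7% lower. They included the exonuclease Eri1, which trims the ends of histone mRNA (0.62 ± 0.15, adjusted p = 0.01433). For diet in peritumoral fat, where 34 histone genes rose, edgeR called none of the 15, beside 33.6% of all genes. An unadjusted p under 0.05 was found in 3 of the 15 and in 7337 of all 15919 genes.

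Replication-independent variants were called in both directions, and these few calls are given as a description. Of 11 genes tested, 4 rose and 2 fell on HFD in peritumoral fat, beside 16.4% of all genes called higher and 17.2% lower. H2afz, the gene of H2A.Z, rose by 0.86 ± 0.22 (adjusted p = 0.01399), H2afx, whose protein marks DNA breaks, by 1.17 ± 0.34 (adjusted p = 0.02512) and Cenpa, the H3 form of centromeres, by 1.09 ± 0.33 (adjusted p = 0.02951). H2afy2, a macroH2A gene, fell by 0.82 ± 0.23 (adjusted p = 0.02099) and the linker variant H1fx by 1.45 ± 0.49 (adjusted p = 0.04123). By tumor side on HFD 3 rose and 2 fell, beside 16.8% of all genes called higher and 12.7% lower. Among them were Cenpa (1.73 ± 0.32, adjusted p = 0.005861) and H1fx (-1.76 ± 0.36, adjusted p = 0.008426). H3f3b, which encodes the H3.3 protein, was the most abundant variant on the CPM scale, with group means between 107.7 and 139.4 CPM. It rose by 0.37 ± 0.11 by side on HFD (adjusted p = 0.03001). H1f0, the linker variant of resting cells, was 0.01 ± 0.11 by side on HFD (adjusted p = 0.9533) and rose on HFD by 0.30 ± 0.08 in contralateral fat (adjusted p = 0.007866).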

How the data were processed

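The authors deposited counts per gene for 24 libraries in 1 matrix, with gene positions and exon lengths. TopHat, DESeq and mm10 are named per the submitters' processing notes, and versions, counter and strand are not given in the sources used here. Each comparison was fitted on its own 8 libraries (16 for the 2 interactions) in R 4.3.3, using the quasi-likelihood F test of edgeR 4.0.16 with robust fitting and TMM scaling. Genes passed filterByExpr (minimum count 10, minimum total 15). Adjustment (Benjamini-Hochberg) ran over every gene tested, and the threshold was 0.05. CPM were scaled with TMM factors over all 24 libraries. The matrix was read in R (package data.table, version 1.17.8) and sequences in pandas 2.3.3. Fits were tested on simulated data. Depth, 9130125 to 18204747 counts per library, limits genes of a few counts. In no comparison did all 4 same-numbered pairs of libraries deviate together (r over 0.1), and numbers were not treated as pairs. For tumor side on HFD 3 of 4 pairs did, with r of 0.105, 0.196 and 0.326. These values do not exclude that contralateral and peritumoral libraries of the same number share a mouse. Replicates differed: the median chi-square per gene was 0.9015 to 5.905 over 36 pairs, against 0.4549 from sampling alone. The members and lists were chosen with earlier results of these data known.

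Named histone genes were the 12 highest per exon kb, up to 6 called higher and 6 lower per comparison by lowest adjusted p, the reported polyadenylated genes and the testis forms. From each other list up to 3 called genes per comparison were eligible, with Slbp, Mki67, Top2a, Rrm2 and Pcna as references. Some further genes of those lists and of the members were named after their values were seen. Alternatives were DESeq2 1.42.0, RLE factors, library totals alone, no low-count filter, all 24 libraries in 1 fit, the replicate block, and leaving out each library. Marker lists were summed in CPM.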

Additional observations from a re-analysis of the deposited data

Results flagged for a closer look

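In HFD peritumoral fat, replicate 2 lay far from the rest of its group in the summed level of all histone genes (1091 CPM) and in the sums of H2A (76.62 CPM), H2B (178.2 CPM) and H4 genes (382 CPM). The same library was set apart for Hist1h4d (156.7 CPM), Hist2h4 (57.94 CPM), Hist1h2bb (36.55 CPM), Hist1h2be (35.52 CPM), Hist1h4c (32.82 CPM), Hist1h4k (17.19 CPM) and Hist1h3c (10.86 CPM). In Chow no-tumor fat Hist1h1b was high in replicate 1 (3.692 CPM) and Hist4h4 stood apart in replicate 3 (11.36 CPM). Hist1h4c was flagged there in replicate 2 (14.4 CPM), only slightly below a group whose values lay close together. In Chow contralateral fat Hist4h4 stood apart in replicate 4 (7.482 CPM). In all, 15 of 180 groups of 4 values were set apart by the gap to the nearest library, where chance alone gives about 1 in 20. Most of the 15 come from HFD peritumoral replicate 2, and the sums contain genes that were also looked at singly. The 180 groups are therefore not independent, and no excess over chance can be read from this count.

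The difference between contralateral and no-tumor fat was called as dependent on diet in 5 of 38 histone genes by the edgeR interaction test, where 9.94% of all genes were called higher and 19.9% either way. With all 24 libraries in 1 fit 0 were called, and with library totals alone 1, which was lower. The interaction was 0.522 (log2) for Hist1h4c, 0.697 for Hist4h4, 0.395 for Hist1h4h, 0.384 for Hist2h4 and 1.838 for Hist1h2bf.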

How the results depend on the processing

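Counts of histone genes called stayed within 1.5 times of those reported under the alternatives tried, with these exceptions, whose cause was not tested. For diet in no-tumor fat 14 were called with library totals alone, a scaling that moved the median of all genes from -0.02 to 0.15 (4064 genes higher and 669 lower, against 2160 and 1783), and 2 with all 24 libraries in 1 fit. For tumor bearing on Chow 0 were called with library totals alone, 0 with all 24 libraries in 1 fit and 0 with the replicate number as a block. DESeq2 called 3 for the interaction of diet with tumor side, beside 727 genes in all. For the interaction of diet with tumor bearing 1 was called with library totals alone (lower) and 0 with all 24 libraries. Summed levels with library totals were 401.3 CPM in HFD no-tumor and 256.2 CPM in Chow contralateral fat. Without Hist1h4d they were 260.9, 330.8, 202.9 and 329.9 CPM in Chow no-tumor, HFD no-tumor, Chow contralateral and HFD contralateral fat. Signs in the alternatives were compared only for named histone genes in the comparisons that called them, and none of these turned. Values without a call were not compared. The calls for the interaction with bearing went from 5 higher to 1 lower with library totals alone.

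Leaving out each library in turn gave 5 to 14 calls for diet in no-tumor fat (14 without Chow no-tumor replicate 1 and 5 without replicate 4), 16 to 23 for diet in contralateral fat and 25 to 35 for diet in peritumoral fat. Tumor side on HFD gave 14 to 29, with 18, 14 and 16 without HFD contralateral replicates 1, 3 and 4. Tumor bearing on Chow gave 2 to 6, with 3 without Chow contralateral replicates 1, 2 or 4 or Chow no-tumor replicates 1 or 3, and 2 without Chow contralateral replicate 3. Tumor side on Chow and tumor bearing on HFD gave 0 throughout. The interaction with side gave 0 to 7 (7 without HFD peritumoral replicate 1). The interaction with bearing gave 2 to 5, at or below 3 without Chow no-tumor replicate 1, Chow contralateral replicates 1 or 3, HFD contralateral replicates 1 to 3 or any HFD no-tumor replicate. The sums ranged over 301.8 to 320.4, 378.2 to 390, 242 to 248.1, 376.1 to 395.2, 245.1 to 284 and 542.2 to 741.9 CPM, in the order Chow and HFD no-tumor, contralateral and peritumoral.

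With the replicate block 9, 18 and 35 genes were called for diet in no-tumor, contralateral and peritumoral fat, 28 for tumor side on HFD and 4 for the interaction with bearing. The r of same-numbered libraries ran from -0.37 to 0.33, and at most 2 of 4 libraries per comparison matched their own number best. Depth limits the genes of a few counts, of which 11 to 22 were not tested per comparison.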
